A study of Mus musculus with 6 samples.

Results

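The genes described here are 42 genes of the NRF2 pathway, of glutathione and peroxide defence and of the glutathione transferase family, chosen by name out of 27179 genes counted in each of 6 mouse liver RNA libraries. The study set 3 Mettl3-deficient livers beside 3 wild-type livers. METTL3 is the enzyme subunit that places N6-methyladenosine marks on RNA. All 6 livers came from the C57BL/6 strain, and no treatment is named for either group. The sources used here give neither the age and sex of the mice nor how Mettl3 was made deficient or in which cells. Nor do they say which litters or days the 6 livers came from, and every p-value rests on the spread over these livers alone. Libraries held 34576824, 36025772 and 35263636 counts in Mettl3-deficient livers 1, 2 and 3, and 31960205, 34297553 and 32212085 counts in wild-type livers 1, 2 and 3.

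NRF2, encoded by Nfe2l2, is a transcription factor that KEAP1 marks for degradation in unstressed cells. When electrophiles or oxidants modify KEAP1, NRF2 accumulates, pairs with small MAF proteins and binds antioxidant response elements near genes for quinone and carbonyl reduction, glutathione supply, thioredoxin recycling and glutathione conjugation. Glutathione transferases join glutathione to reactive compounds. Cytosolic forms fall into classes named alpha, mu, pi, theta, zeta and omega, the kappa form sits in mitochondria and peroxisomes, and the microsomal forms are membrane proteins. Liver is among the organs richest in them.

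All levels below are CPM (each count divided by its TMM-scaled library total), listed in the order of livers 1, 2 and 3 of a group, and fold changes are Mettl3-deficient over wild type on the log2 scale with their standard error (SE). A gene was called higher or lower where its Benjamini-Hochberg adjusted p from edgeR's quasi-likelihood F test, adjusted over all 14380 tested genes, was under 0.05. Mettl3 itself had 5.96, 6.60 and 4.94 CPM in the Mettl3-deficient livers, against 13.4, 14.3 and 12.1 CPM in the wild-type livers. It was lower in all 3 Mettl3-deficient livers, by 1.18 ± 0.20 on the log2 scale (adjusted p = 0.00797 in edgeR).

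Of the 42 genes, 41 had enough counts to be tested, and Mgst2 did not. The call was higher for 16 of the 41 (39.0%), where 13.3% of all tested genes were called higher. It was lower for 6 of the 41 (14.6%), where 10.5% of all tested genes were called lower. The genes were chosen with earlier results of these data known, so these shares describe the list and do not test it. The genes called higher were Nfe2l2, the detoxication enzymes Nqo1, Cbr1, Cbr3 and Ephx1, the cystine carrier Slc7a11, the sulfiredoxin Srxn1, the glutathione peroxidase Gpx2, and the glutathione transferases Gsta1, Gsta2, Gsta4, Gstm1, Gstm2, Gstm3, Gstm4 and Mgst3. The genes called lower were Sod1, Sod2, Cat, Gsta3, Gstt1 and Gstz1. The median log2 fold change of the 41 was 0.15, against 0.01 over all tested genes. All 3 Mettl3-deficient livers lay above all 3 wild-type livers for 17 of the 41 genes (41.5%), against 23.9% of all tested genes, and below them for 9 (22.0%), against 21.9% of all tested genes. The groups overlapped for the other 15.

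The scaling of the libraries shifted every fold change. TMM factors were 1.17, 1.25 and 1.12 in the Mettl3-deficient libraries and 0.881, 0.825 and 0.840 in the wild-type libraries. With library size alone the median over all tested genes moved to 0.49 on the log2 scale, and that of the 41 genes to 0.62. The calls then split into 20 higher and 2 lower, Gsta3 and Gstt1, in place of 16 higher and 6 lower. The 13.3% and 10.5% of all tested genes hold for TMM scaling, and the shares with library size alone were not counted. No called gene changed its sign with library size alone, while 8 genes without a call did (Keap1, Gclc, Gclm, Gstm6, Gstm7, Gstp1, Gstk1 and Gsto1).

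**Figure D1:**
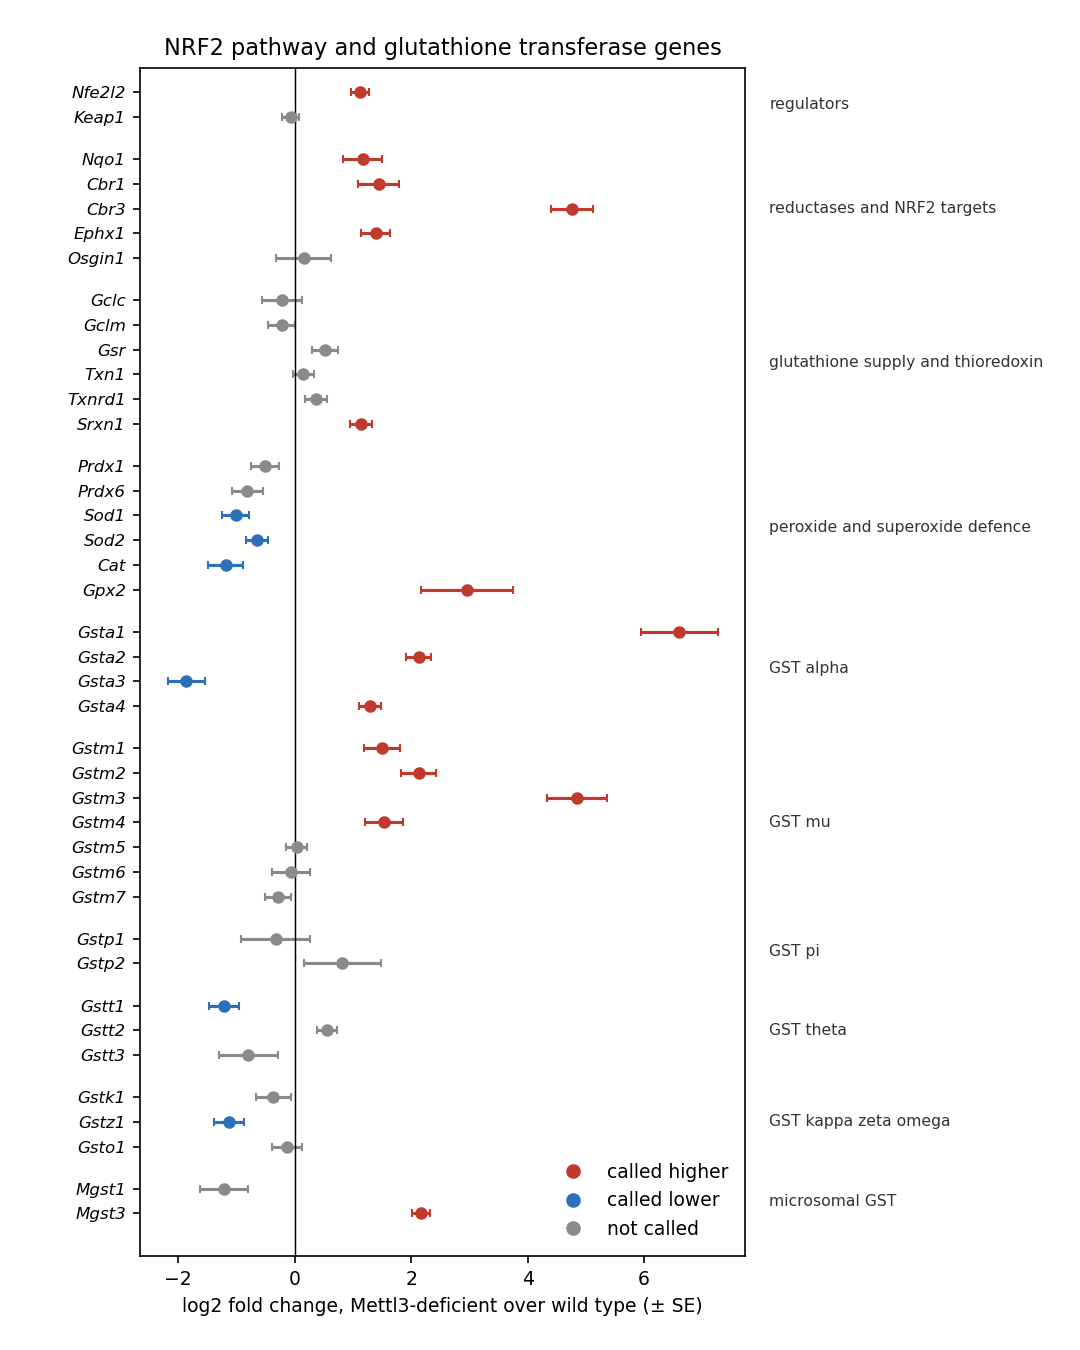
Log2 fold change of 40 genes, Mettl3-deficient over wild type (x axis), by role (right), with bars of 1 SE from edgeR and TMM scaling; red marks genes called higher, blue genes called lower and grey genes not called. Slc7a11 is not drawn because no wild-type library had a count of it. Gsta1 (6.60), Gstm3 (4.85) and Cbr3 (4.76) lie farthest to the right and Gsta3 (-1.86) farthest to the left; Keap1, Gclc, Gclm, Gstm6, Gstm7, Gstp1, Gstk1 and Gsto1 turn positive with library size alone.

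Leaving out each library in turn separated the calls into firmer and weaker ones. Of the 22 called genes, 12 were called in every one of the 6 fits without a library. These were Nfe2l2, Cbr3, Ephx1, Slc7a11, Srxn1, Gsta1, Gsta2, Gsta4, Gstm2, Gstm3 and Mgst3, all higher, and Gsta3, lower. The other 10 lost the call in at least 1 such fit, and their values without the library concerned stand with each gene below. The direction of all 22 stayed the same in those fits. How many of all called genes held in every such fit was not counted, so the 12 of 22 stands without a background.

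Among the regulators, the level of Nfe2l2 differed between the groups and that of Keap1 did not pass the test. Nfe2l2 had 164, 168 and 161 CPM in the Mettl3-deficient livers, against 74.7, 73.8 and 78.5 CPM in the wild-type livers. The spread within each group was small, and the groups stood well apart. Nfe2l2 rose 2.17-fold by the group means, a log2 fold change of 1.12 ± 0.15 (adjusted p = 0.00396 in edgeR). Keap1, the adaptor that brings NRF2 to its ubiquitin ligase, had 51.4, 43.6 and 47.7 CPM in the Mettl3-deficient livers and 43.8, 53.7 and 52.1 CPM in the wild-type livers, and the groups overlapped. Its log2 fold change was -0.07 ± 0.15 (adjusted p = 0.756 in edgeR).

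Of the 5 genes for reductases and other NRF2 targets, 4 rose. Cbr3, a carbonyl reductase, moved most, with 21.8, 21.5 and 14.7 CPM in the Mettl3-deficient livers against 0.639, 0.424 and 1.07 CPM in the wild-type livers. It was barely detected in any wild-type library and rose 27.2-fold by the means, with a log2 fold change of 4.76 ± 0.37 (adjusted p = 0.000686 in edgeR). Its relative Cbr1 lies on the same chromosome (chromosome 16, 93607837-93610349 for Cbr1 and chromosome 16, 93683219-93690991 for Cbr3, GRCm38.p6). Cbr1 had 419, 317 and 350.1 CPM in the Mettl3-deficient livers and 71.0, 140.3 and 189 CPM in the wild-type livers, and wild-type liver 1 was the lowest. Cbr1 rose by 1.44 ± 0.35 on the log2 scale (adjusted p = 0.0239 in edgeR), and the adjusted p was 0.0801 without Mettl3-deficient liver 1 and 0.0763 without wild-type liver 2. Per kb of exon, Cbr1 stood at 293 CPM per kb in Mettl3-deficient livers and 108 in wild-type livers, and Cbr3 at 16.5 CPM per kb in Mettl3-deficient livers and 0.608 in wild-type livers.

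Ephx1 encodes microsomal epoxide hydrolase, which opens reactive epoxides. Its level was 779, 588 and 873 CPM in the Mettl3-deficient livers, against 256, 267 and 334 CPM in the wild-type livers. The groups did not overlap, and the gene rose 2.62-fold by the means (log2 fold change 1.39 ± 0.25, adjusted p = 0.00942 in edgeR). Nqo1, a quinone reductase often read as the reporter of NRF2 activity, had 34.0, 14.6 and 16.5 CPM in the Mettl3-deficient livers, against 8.13, 9.79 and 11.1 CPM in the wild-type livers. Mettl3-deficient liver 1 was well above the other livers of its group, and the groups did not overlap. The log2 fold change of Nqo1 was 1.16 ± 0.33 (adjusted p = 0.0385 in edgeR). Over all 6 livers this was the largest adjusted p among the genes called higher. It was 0.0991 without Mettl3-deficient liver 1, 0.0877 without wild-type liver 1, 0.104 without wild-type liver 2 and 0.0789 without wild-type liver 3, and 0.0748 with limma-voom. Osgin1, an oxidative-stress-induced growth inhibitor, had 405, 157 and 175 CPM in the Mettl3-deficient livers and 339, 126 and 198 CPM in the wild-type livers. Liver 1 was the highest of each group, the groups overlapped, and the log2 fold change was 0.15 ± 0.47 (adjusted p = 0.833 in edgeR).

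The 7 genes for glutathione supply and thioredoxin gave 2 calls, Slc7a11 and Srxn1. Slc7a11 encodes the carrier that brings in cystine, the raw material for glutathione. It had raw counts of 14, 24 and 22 in the Mettl3-deficient livers and 0, 0 and 0 in the wild-type livers. These are few counts, but they were present in every Mettl3-deficient library and in no wild-type library. Against a floor of 3 counts over the wild-type group, the level was at least 13.4-fold higher in the Mettl3-deficient livers (adjusted p = 0.0132 in edgeR). Srxn1 encodes sulfiredoxin, which restores overoxidised peroxiredoxins. It had 104, 89.1 and 66.4 CPM in the Mettl3-deficient livers, against 35.1, 42.6 and 40.1 CPM in the wild-type livers. The groups stood apart, and Srxn1 rose 2.20-fold by the means (log2 fold change 1.14 ± 0.19, adjusted p = 0.00839 in edgeR).

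Neither subunit of glutamate-cysteine ligase, an enzyme of glutathione synthesis, passed the test. Glutathione synthetase Gss, given below with the further genes, was called higher. Gclc encodes the catalytic subunit of glutamate-cysteine ligase, the rate-limiting enzyme, and had 289, 221 and 265 CPM in the Mettl3-deficient livers and 477, 216 and 209 CPM in the wild-type livers. Wild-type liver 1 was the highest of all 6, the other 5 livers lay together, and the log2 fold change was -0.22 ± 0.34 (adjusted p = 0.665 in edgeR). Gclm, the modifier subunit of the same ligase, had 130.2, 84.8 and 145 CPM in the Mettl3-deficient livers and 129, 139 and 153 CPM in the wild-type livers. Its groups overlapped, with a log2 fold change of -0.23 ± 0.23 (adjusted p = 0.49 in edgeR). Both are known NRF2 targets in many cell types.

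Recycling enzymes gave small positive log2 fold changes without a call. Gsr, glutathione reductase, had 117, 104 and 70.3 CPM in the Mettl3-deficient livers and 82.1, 62.0 and 59.9 CPM in the wild-type livers, with Mettl3-deficient liver 3 below wild-type liver 1. Its log2 fold change was 0.52 ± 0.23 (adjusted p = 0.133 in edgeR), and without Mettl3-deficient liver 3 it was 0.70 (adjusted p = 0.0399). Txnrd1, thioredoxin reductase, had 219.8, 209 and 171 CPM in the Mettl3-deficient livers and 141, 171 and 154 CPM in the wild-type livers, touching between the lowest and the highest of the groups (log2 fold change 0.36 ± 0.19, adjusted p = 0.187 in edgeR). Txn1, the thioredoxin it reduces, had 228, 186 and 186 CPM in the Mettl3-deficient livers and 193, 175 and 173 CPM in the wild-type livers. These values overlapped, with a log2 fold change of 0.15 ± 0.18 (adjusted p = 0.571 in edgeR). With library size alone all 3 were called higher.

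The peroxide and superoxide enzymes ran the other way, with 3 of 6 lower and 1 higher. Cat encodes catalase, the peroxisomal enzyme that splits hydrogen peroxide. It had 1129, 726 and 1368 CPM in the Mettl3-deficient livers, against 2852, 2209 and 2271 CPM in the wild-type livers, and no Mettl3-deficient liver reached the lowest wild-type liver. Cat was 2.28-fold lower by the means, and fell by 1.19 ± 0.31 on the log2 scale (adjusted p = 0.0288 in edgeR). The adjusted p was 0.0955 without Mettl3-deficient liver 1, 0.0523 without wild-type liver 1, 0.075 without wild-type liver 2 and 0.0748 without wild-type liver 3. Sod1, the cytosolic superoxide dismutase, had 472, 349 and 472 CPM in the Mettl3-deficient livers, against 926, 872 and 805 CPM in the wild-type livers. The groups were well separated, and Sod1 fell by 1.01 ± 0.23 on the log2 scale (adjusted p = 0.0199 in edgeR). The adjusted p of Sod1 was 0.0688 without Mettl3-deficient liver 1, 0.0719 without wild-type liver 2 and 0.0593 without wild-type liver 3.

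Sod2, the mitochondrial superoxide dismutase, had 145, 138 and 140.0 CPM in the Mettl3-deficient livers, against 182, 247 and 237 CPM in the wild-type livers. The Mettl3-deficient values were almost equal to each other and all lay below the wild-type values. Sod2 fell by 0.66 ± 0.19 on the log2 scale (adjusted p = 0.0402 in edgeR), near the threshold, and the adjusted p was 0.123 without Mettl3-deficient liver 1, 0.0812 without Mettl3-deficient liver 2, 0.0689 without Mettl3-deficient liver 3, 0.143 without wild-type liver 2 and 0.131 without wild-type liver 3. With library size alone the log2 fold changes were -0.54 for Sod1, -0.18 for Sod2 and -0.73 for Cat, none of them called. Prdx1 and Prdx6 encode peroxiredoxins, which reduce peroxides. Prdx1 had 829, 592 and 739.6 CPM in the Mettl3-deficient livers and 1147, 974 and 968 CPM in the wild-type livers (log2 fold change -0.52 ± 0.24, adjusted p = 0.147 in edgeR). Prdx6 had 342, 221 and 401 CPM in the Mettl3-deficient livers and 529, 628 and 535 CPM in the wild-type livers (log2 fold change -0.81 ± 0.27, adjusted p = 0.0617 in edgeR). Neither pair of groups overlapped, neither gene was called, and without Mettl3-deficient liver 3 the adjusted p of Prdx6 was 0.0428. DESeq2 called both lower (adjusted p = 0.0324 for Prdx1 and 0.00854 for Prdx6).

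Gpx2, a glutathione peroxidase best known from gut epithelium, was the exception in this group. It had 1.39, 0.930 and 1.11 CPM in the Mettl3-deficient livers, against 0.213, 0 and 0.222 CPM in the wild-type livers, from 142 raw counts over the Mettl3-deficient group and 12 over the wild-type group. The level was low throughout, and the groups did not overlap. Gpx2 rose by 2.96 ± 0.79 on the log2 scale (adjusted p = 0.032 in edgeR), and its adjusted p was 0.107 without Mettl3-deficient liver 1, 0.0701 without Mettl3-deficient liver 2, 0.0567 without Mettl3-deficient liver 3 and 0.0686 without wild-type liver 3.

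**Figure D2:**
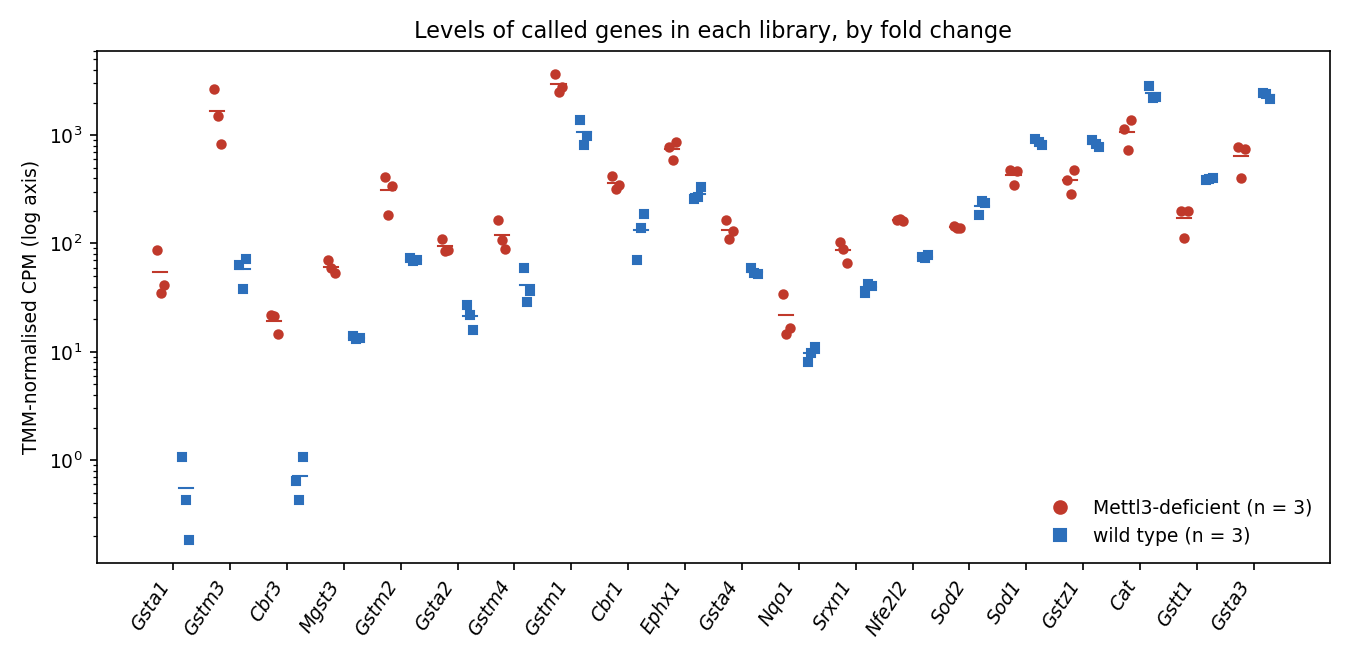
TMM-normalised CPM (log axis) of 20 called genes in each of 3 Mettl3-deficient (red circles) and 3 wild-type livers (blue squares), ordered by log2 fold change, with group means as short lines; Slc7a11 and Gpx2, at 60 and 142 counts over the Mettl3-deficient group, are not drawn. Groups do not overlap for any gene drawn, and the wild-type points of Gsta1 and Cbr3 lie near or below 1 CPM.

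The alpha class of glutathione transferases split, with Gsta1, Gsta2 and Gsta4 higher and Gsta3 lower. Gsta1 was nearly absent from wild-type livers, with 87.6, 35.2 and 41.7 CPM in the Mettl3-deficient livers against 1.07, 0.424 and 0.185 CPM in the wild-type livers. It had the largest fold change by the means among the members with counts in both groups, 98.3-fold (log2 fold change 6.60 ± 0.66, adjusted p = 0.0021 in edgeR). Its wild-type levels rest on 30, 12 and 5 raw counts, and without wild-type liver 1 the log2 fold change was 7.46, a fold 1.82 times as large (adjusted p = 0.00172 in edgeR). Gsta2 had 109.8, 85.2 and 87.1 CPM in the Mettl3-deficient livers, against 26.8, 21.9 and 16.0 CPM in the wild-type livers. The groups lay far apart, and Gsta2 rose 4.37-fold by the means (log2 fold change 2.13 ± 0.22, adjusted p = 0.00182 in edgeR). Gsta4, which in rodents favours the lipid peroxidation product 4-hydroxynonenal, had 164, 109.6 and 130.0 CPM in the Mettl3-deficient livers, against 59.7, 53.0 and 52.3 CPM in the wild-type livers. Gsta4 rose 2.45-fold by the means (log2 fold change 1.29 ± 0.19, adjusted p = 0.00538 in edgeR).

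Gsta3 is the main alpha form of the wild-type livers, at 1505 CPM per kb of exon there against 24.8 for Gsta2 and 56.3 for Gsta4. Its level was 786, 399 and 744 CPM in the Mettl3-deficient livers, against 2449, 2388 and 2169 CPM in the wild-type livers. Mettl3-deficient liver 2 was the lowest and no value came near the wild-type range. Gsta3 was 3.63-fold lower by the means and fell by 1.86 ± 0.32 on the log2 scale (adjusted p = 0.00839 in edgeR), the smallest adjusted p of the 6 lower calls. Gsta3 was still at 414 CPM per kb in the Mettl3-deficient livers, above Gsta1 at 62.7, Gsta2 at 108 and Gsta4 at 138 CPM per kb.

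The start regions of Gsta1, Gsta2 and Gsta3 are shown because the first pair rose while the third fell. Each run covers 250 bases before to 50 bases after the annotated start, 5′ to 3′ on the gene's strand, from RefSeq on GRCm38.p6 (chr9:78230419-78230718, plus strand, for Gsta1; chr9:78347096-78347395, minus strand, for Gsta2; chr1:21240335-21240634, plus strand, for Gsta3). Capitals mark the longest run shared by Gsta1 and Gsta2, 29 bases that begin 118 and 121 bases before their starts, and in Gsta3 the 9 bases that match the NRF2 element core TGACNNNGC, which begin 121 bases before its start.
Gsta1: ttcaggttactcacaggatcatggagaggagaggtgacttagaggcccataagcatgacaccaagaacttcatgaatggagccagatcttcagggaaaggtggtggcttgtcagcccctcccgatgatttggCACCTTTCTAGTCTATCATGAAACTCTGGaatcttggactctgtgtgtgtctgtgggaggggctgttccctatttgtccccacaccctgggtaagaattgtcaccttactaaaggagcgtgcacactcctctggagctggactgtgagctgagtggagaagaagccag
Gsta2: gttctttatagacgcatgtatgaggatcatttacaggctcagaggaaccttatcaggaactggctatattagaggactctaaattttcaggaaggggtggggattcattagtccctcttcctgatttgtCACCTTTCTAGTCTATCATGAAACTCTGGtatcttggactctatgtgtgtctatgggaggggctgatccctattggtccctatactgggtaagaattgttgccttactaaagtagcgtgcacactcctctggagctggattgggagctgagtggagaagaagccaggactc
Gsta3: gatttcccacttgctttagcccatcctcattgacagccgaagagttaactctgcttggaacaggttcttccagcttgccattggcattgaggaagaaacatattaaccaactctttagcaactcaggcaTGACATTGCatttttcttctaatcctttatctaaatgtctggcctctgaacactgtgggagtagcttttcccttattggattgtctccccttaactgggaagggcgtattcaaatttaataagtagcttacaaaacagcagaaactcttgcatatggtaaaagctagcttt
In a global alignment, 77.3% of the 300 bases were identical between Gsta1 and Gsta2, against 55.0% between Gsta1 and Gsta3 and 54.3% between Gsta2 and Gsta3. Neither Gsta1 nor Gsta2 held the core in this window, and 16.7% of all tested genes with a start region in the table did. Bases farther from the starts were not searched, so the core may lie there.

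Reads of Gsta1 and Gsta2 can be divided between the genes, since their longest protein-coding GENCODE transcripts were 97.2% identical and 44.6% of the 50-base windows of Gsta1 also occurred in Gsta2. Their single values are therefore uncertain, and the counts were also summed. The sum was 197, 120.5 and 129 CPM in the Mettl3-deficient livers, against 27.9, 22.3 and 16.2 CPM in the wild-type livers. It rose by 2.75 ± 0.28 on the log2 scale (adjusted p = 0.00165 in edgeR). No 50-base window was shared between either of them and Gsta3 or Gsta4.

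Of the 7 mu-class genes, 4 rose and the other 3 were not called. Gstm3 moved most, with 2659, 1517 and 838 CPM in the Mettl3-deficient livers against 63.6, 37.8 and 72.6 CPM in the wild-type livers. The Mettl3-deficient livers spread widely, yet the lowest of them lay far above the highest wild-type liver. Gstm3 rose 28.8-fold by the means (log2 fold change 4.85 ± 0.52, adjusted p = 0.00187 in edgeR). Gstm2 had 411, 182 and 338 CPM in the Mettl3-deficient livers, against 73.1, 69.4 and 70.4 CPM in the wild-type livers. Its wild-type values were nearly equal, and Gstm2 rose 4.37-fold by the means (log2 fold change 2.13 ± 0.30, adjusted p = 0.00492 in edgeR).

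Gstm1 was the mu gene with the highest level per length in either group, 2191 CPM per kb in Mettl3-deficient livers and 775 in wild-type livers. It had 3669, 2509 and 2808 CPM in the Mettl3-deficient livers, against 1387, 808 and 982 CPM in the wild-type livers. Gstm1 rose 2.83-fold by the means (log2 fold change 1.50 ± 0.31, adjusted p = 0.0142 in edgeR), and its adjusted p was 0.0583 without Mettl3-deficient liver 1, 0.0652 without wild-type liver 2 and 0.062 without wild-type liver 3. Gstm4 had 164, 108 and 89.7 CPM in the Mettl3-deficient livers, against 59.8, 29.0 and 36.3 CPM in the wild-type livers, with wild-type liver 1 the highest of its group. Its log2 fold change was 1.53 ± 0.32 (adjusted p = 0.0159 in edgeR), and its adjusted p was 0.0522 without Mettl3-deficient liver 1, 0.0574 without wild-type liver 2 and 0.059 without wild-type liver 3. Reads shared between mu genes were fewer than between Gsta1 and Gsta2: 10% of the 50-base windows of Gstm1 occurred in Gstm3, and 6.02% of those of Gstm3 in Gstm6.

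The mu genes without a call had overlapping groups. Gstm6 had 131, 89.5 and 95.9 CPM in the Mettl3-deficient livers and 168, 89.8 and 71.1 CPM in the wild-type livers (log2 fold change -0.06 ± 0.33, adjusted p = 0.911 in edgeR). Gstm7 had 70.1, 43.9 and 64.1 CPM in the Mettl3-deficient livers and 89.3, 67.6 and 60.7 CPM in the wild-type livers (log2 fold change -0.29 ± 0.22, adjusted p = 0.37 in edgeR). Gstm5 was low in all livers, at 9.71, 12.2 and 11.1 CPM in the Mettl3-deficient livers and 11.3, 9.44 and 11.5 CPM in the wild-type livers (log2 fold change 0.03 ± 0.18, adjusted p = 0.912 in edgeR). It overlaps the long noncoding gene 4933431E20Rik over 360 bases, with 2274 counts of Gstm5 and 1045 of the noncoding gene over the 6 libraries.

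The calls followed the order of the mu genes on the chromosome. The 7 genes form an unbroken run among the genes listed in the count files on chromosome 3, from 107895854 to 108045179 (GRCm38.p6), in the order Gstm5, Gstm7, Gstm6, Gstm3, Gstm2, Gstm1, Gstm4. The first 3 were not called, and the last 4 rose, with the largest change at Gstm3, where the called stretch begins. On chromosome 9, Gsta4, Gsta1 and Gsta2 lie in that order between 78191966 and 78347192 and all rose, while Gsta3 lies alone on chromosome 1. On chromosome 10 the theta genes Gstt3, Gstt1 and Gstt2 lie between 75774117 and 75837419 and did not move together. The relation to gene order was noticed after the values were seen and was given no test.

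**Figure D3:**
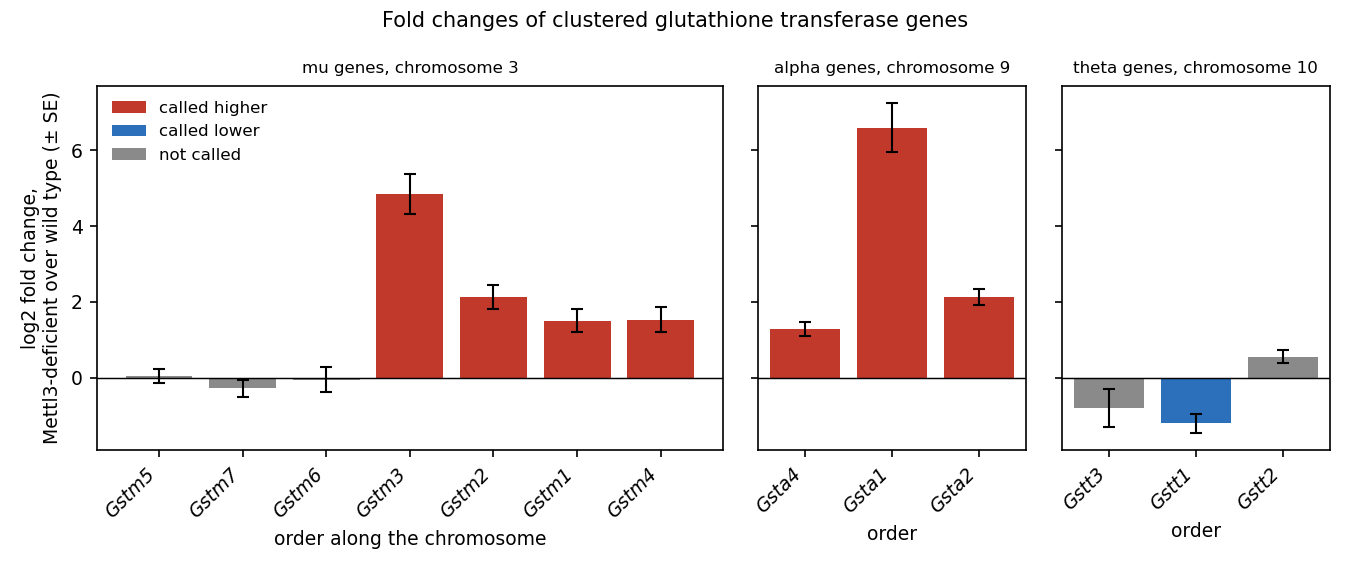
Log2 fold change, Mettl3-deficient over wild type (bars from 0, with SE), of glutathione transferase genes in their order along mouse chromosomes 3, 9 and 10; red marks genes called higher, blue genes called lower and grey genes not called. On chromosome 3 the bars of Gstm5, Gstm7 and Gstm6 lie near 0 (Gstm6 and Gstm7 turn positive with library size alone) and those of Gstm3, Gstm2, Gstm1 and Gstm4 reach from 1.50 to 4.85.

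Theta, kappa, zeta and omega genes gave lower calls or none. Gstt1 had 199.6, 113 and 199 CPM in the Mettl3-deficient livers, against 389, 391 and 405 CPM in the wild-type livers. The wild-type values were nearly equal, and Gstt1 was 2.32-fold lower by the means, falling by 1.21 ± 0.26 on the log2 scale (adjusted p = 0.0167 in edgeR); the adjusted p was 0.0568 without wild-type liver 2 and 0.0555 without wild-type liver 3. Gstt2 went the other way without a call, at 56.1, 49.8 and 61.7 CPM in the Mettl3-deficient livers and 33.3, 35.8 and 45.5 CPM in the wild-type livers. Its groups did not overlap, and its log2 fold change of 0.55 ± 0.17 just missed the threshold in edgeR (adjusted p = 0.0507) and passed it in DESeq2 (adjusted p = 0.0388). Gstt3 had 117, 30.0 and 63.3 CPM in the Mettl3-deficient livers and 69.6, 159.8 and 136 CPM in the wild-type livers. Those groups overlapped (log2 fold change -0.80 ± 0.51, adjusted p = 0.279 in edgeR).

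Gstz1 encodes maleylacetoacetate isomerase, a step of tyrosine breakdown. It had 388, 285 and 476 CPM in the Mettl3-deficient livers, against 905, 828 and 776 CPM in the wild-type livers, and the groups stood apart. Gstz1 was 2.18-fold lower by the means and fell by 1.13 ± 0.26 on the log2 scale (adjusted p = 0.0198 in edgeR), and its adjusted p was 0.0782 without Mettl3-deficient liver 1, 0.0669 without wild-type liver 2 and 0.0572 without wild-type liver 3. It overlaps Pomt2 over 808 bases, with 117205 counts of Gstz1 and 5601 of Pomt2 over the 6 libraries. Gstk1 had 162, 71.8 and 145 CPM in the Mettl3-deficient livers and 150.4, 180.4 and 156 CPM in the wild-type livers, with Mettl3-deficient liver 2 apart from the rest (log2 fold change -0.37 ± 0.30, adjusted p = 0.392 in edgeR). Gsto1 had 103, 118 and 119 CPM in the Mettl3-deficient livers and 77.9, 143 and 151 CPM in the wild-type livers, where wild-type liver 1 was the lowest of all 6 (log2 fold change -0.13 ± 0.26, adjusted p = 0.738 in edgeR).

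The microsomal forms diverged. Mgst3, which in human also has leukotriene C4 synthase activity, had 70.2, 58.9 and 53.1 CPM in the Mettl3-deficient livers, against 14.0, 13.0 and 13.5 CPM in the wild-type livers. Spread within groups was small, and Mgst3 rose 4.49-fold by the means (log2 fold change 2.17 ± 0.16, adjusted p = 0.000651 in edgeR), the smallest adjusted p of the 41 genes. Mgst1, the abundant microsomal form of liver, had 1447, 723 and 1525 CPM in the Mettl3-deficient livers and 4237, 2266 and 2047 CPM in the wild-type livers. All 3 Mettl3-deficient values lay below the wild-type values, but wild-type liver 1 stood far above the others of its group, and the log2 fold change of -1.21 ± 0.41 was not called (adjusted p = 0.0659 in edgeR; DESeq2 adjusted p = 0.00642). Mgst2 had raw counts of 4, 18 and 4 in the Mettl3-deficient livers and 0, 2 and 0 in the wild-type livers, too few for the test.

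Pi-class levels turned on a single library. Gstp1, whose rat counterpart has long served as a marker of preneoplastic liver lesions, had 459.8, 470.5 and 393 CPM in the Mettl3-deficient livers and 1167, 229.7 and 263 CPM in the wild-type livers. Wild-type liver 1 was far above every other liver, while the other wild-type livers lay below all Mettl3-deficient livers. The log2 fold change was -0.33 ± 0.60 over all 6 livers (adjusted p = 0.715 in edgeR) and 0.84 without wild-type liver 1 (adjusted p = 0.0333 in edgeR). Gstp2 had 7.37, 6.35 and 7.32 CPM in the Mettl3-deficient livers and 8.60, 2.33 and 0.998 CPM in the wild-type livers. Its log2 fold change was 0.82 ± 0.67 (adjusted p = 0.395 in edgeR), and 2.07 without wild-type liver 1 (adjusted p = 0.0141 in edgeR). The transcripts of Gstp1 and Gstp2 were 95.7% identical and shared 62.3% of the 50-base windows of Gstp1, so their single values are uncertain, and their sum gave a log2 fold change of -0.31 (adjusted p = 0.725 in edgeR).

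Wild-type liver 1 was the only wild-type liver with Y-linked counts. Mettl3-deficient livers 1 and 2 had them as well, so the groups were not balanced in this respect. Counts over 4 Y-linked genes were 4747, 5031 and 0 in Mettl3-deficient livers 1, 2 and 3 and 6508, 0 and 0 in wild-type livers 1, 2 and 3. Among libraries with such counts, Gstp1 was at 459.8 and 470.5 CPM in Mettl3-deficient livers 1 and 2 and 1167 CPM in wild-type liver 1. Among libraries without them, it was at 393 CPM in Mettl3-deficient liver 3, against 229.7 and 263 CPM in wild-type livers 2 and 3. Gstp3, counted outside the 42 genes, had 26.6, 29.9 and 25.8 CPM in the Mettl3-deficient livers and 765, 23.3 and 29.8 CPM in the wild-type livers, and was high in wild-type liver 1 alone. With 1 to 2 libraries of each kind in a group, a difference between the kinds was not tested. With the presence of Y-linked counts as a covariate, 15 members were called higher and 5 lower, and Nqo1, Gpx2 and Sod2 lost the call while Gstt2 was called higher. The share of all tested genes called with this covariate was not counted.

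**Figure D4:**
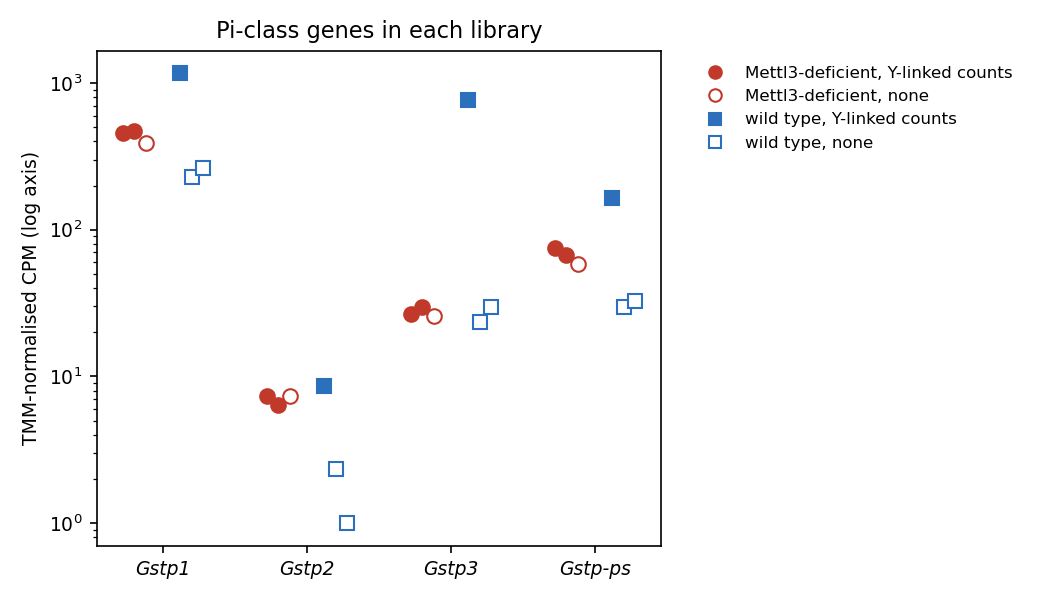
TMM-normalised CPM (log axis) of 4 pi-class genes (Gstp-ps is a pseudogene) in each Mettl3-deficient (red circles) and wild-type liver (blue squares); filled symbols mark libraries with Y-linked counts and open symbols libraries without. Wild-type liver 1, the filled square, lies at 1167 CPM for Gstp1 and 765 CPM for Gstp3, above all other livers.

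Over the 22 transferase genes the totals of the groups overlapped, while the mix of classes differed. Their summed level was 11270, 7016 and 8290 CPM in the Mettl3-deficient livers and 11440, 7824 and 7536 CPM in the wild-type livers, which overlapped. As shares of the summed CPM per kb of exon, the mu class made up 60.0 ± 6.06% in the Mettl3-deficient livers and 17.9 ± 1.67% in the wild-type livers (SD, n = 3 each). The alpha class made up 11.1 ± 1.58% in the Mettl3-deficient livers and 27.9 ± 5.59% in the wild-type livers. The microsomal class made up 11.2 ± 3.23% in the Mettl3-deficient livers and 25.9 ± 3.61% in the wild-type livers. The theta class made up 2.70 ± 0.56% in the Mettl3-deficient livers and 6.26 ± 1.90% in the wild-type livers. Kappa, zeta and omega genes together made up 6.40 ± 1.43% in the Mettl3-deficient livers and 11.9 ± 3.06% in the wild-type livers. For none of these classes did the ranges overlap between the groups. Pi-class shares were 8.68 ± 2.11% in the Mettl3-deficient livers and 10.2 ± 7.16% in the wild-type livers, and overlapped.

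Single genes carried most of the mu, alpha and microsomal shares. Gstm1 held 33.8% of the transferase signal per kb in the Mettl3-deficient livers and 13.2% in the wild-type livers, and Gstm3 held 19.0% in the Mettl3-deficient livers and 0.775% in the wild-type livers. Gsta3 held 6.33% in the Mettl3-deficient livers and 26.5% in the wild-type livers. Mgst1 held 10.3% in the Mettl3-deficient livers and 25.7% in the wild-type livers. A share falls when another gene of the sum rises, so these percentages describe the mix and not the level of each gene.

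**Figure D5:**
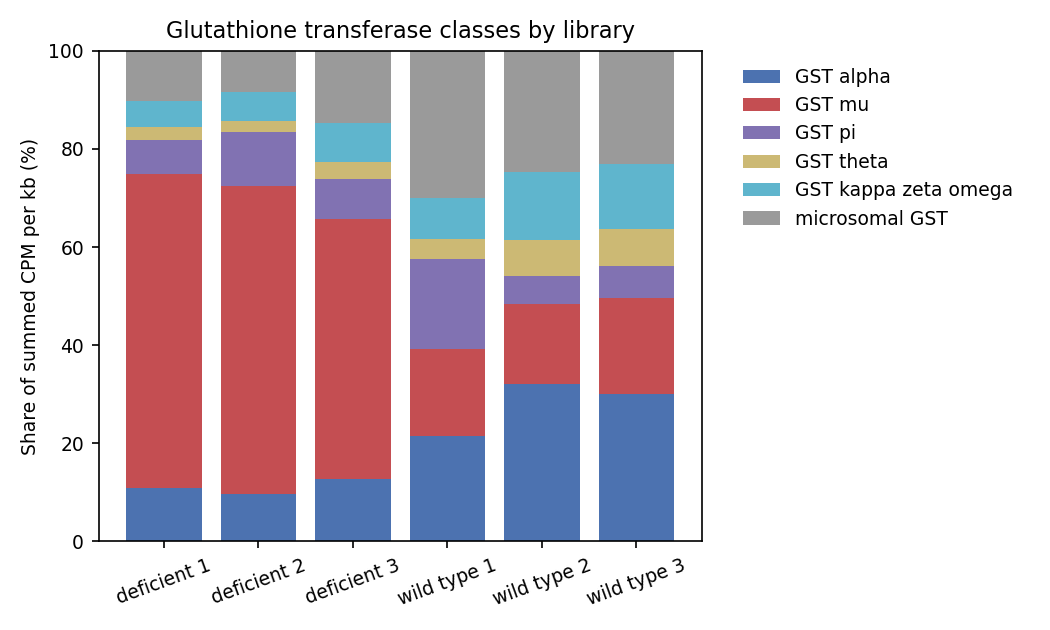
Share of each class in the summed CPM per kb of exon over 22 glutathione transferase genes (y axis, %), as stacked bars for each of 3 Mettl3-deficient livers and then 3 wild-type livers. The mu class (red) fills between 53.0% and 64.0% of the Mettl3-deficient bars and between 16.4% and 19.7% of the wild-type bars.

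Start regions of 37 of the 42 genes were in the RefSeq table, and they were searched on both strands for the NRF2 element core TGACNNNGC within 250 bases before to 50 bases after the start. The core occurred in 2 of the 15 genes called higher that could be searched, Nfe2l2 (TGACTCCGC) and Srxn1 (TGACCTAGC on the opposite strand). It occurred in 2 of the 6 called lower, Gsta3 and Sod1, and in 6 of the 15 not called. Among all tested genes in the table, 16.7% held it. A variant core, TGAGNNNGC, chosen after the data were seen, occurred in Slc7a11 and Srxn1 among the 15 called higher, in Gstt1 and Gstz1 among the 6 called lower, in 5 of the 15 not called and in 22.7% of all tested genes. A match to these letters is a description and not a binding site, and elements farther from the start were not searched.

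A further 76 genes linked to the pathway were listed by role, of which 74 were in the files and 69 were tested. Of these, 13 rose (18.8%) and 6 fell (8.7%), beside 13.3% and 10.5% of all tested genes, and their median log2 fold change was 0.13. This list, too, was chosen with earlier results of these data known. Among 11 partners and repressors of NRF2, 1 rose and 2 fell. Mafk, a small MAF partner, had 34.1, 41.0 and 27.1 CPM in the Mettl3-deficient livers, against 16.9, 16.9 and 17.8 CPM in the wild-type livers (log2 fold change 0.99 ± 0.18, adjusted p = 0.00984 in edgeR). Mafg, another small MAF, was lower, with 28.6, 25.9 and 26.5 CPM in the Mettl3-deficient livers against 35.8, 51.1 and 48.2 CPM in the wild-type livers (log2 fold change -0.74 ± 0.17, adjusted p = 0.0204 in edgeR). Bach1, a repressor that competes for the same elements, was also lower, with 25.9, 23.4 and 24.3 CPM in the Mettl3-deficient livers against 38.7, 31.7 and 43.0 CPM in the wild-type livers (log2 fold change -0.62 ± 0.16, adjusted p = 0.0275 in edgeR). With library size alone the log2 fold changes of Mafg and Bach1 were -0.26 and -0.15 and were not called.

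Of 14 other tested NRF2 targets, 5 passed the test and all of those rose. Abcc4, an efflux pump for conjugates and bile acids, had 58.7, 87.6 and 37.9 CPM in the Mettl3-deficient livers, against 1.46, 1.80 and 3.36 CPM in the wild-type livers (log2 fold change 4.80 ± 0.44, adjusted p = 0.00128 in edgeR). Ugdh, which makes the sugar donor for glucuronidation, had 479, 517 and 348 CPM in the Mettl3-deficient livers, against 153, 128 and 125 CPM in the wild-type livers (log2 fold change 1.73 ± 0.23, adjusted p = 0.00409 in edgeR). The pump gene Abcc3 rose by 1.21 ± 0.26 (adjusted p = 0.0172 in edgeR) and the aldo-keto reductase Akr1b7 by 3.84 ± 0.87 on the log2 scale (adjusted p = 0.0255 in edgeR). Akr1b7 had 17.8, 49.97 and 9.27 CPM in the Mettl3-deficient livers, against 0.426, 1.98 and 2.99 CPM in the wild-type livers, and Mettl3-deficient liver 2 was the highest. Without that liver its log2 fold change was 2.91 (adjusted p = 0.0495 in edgeR), and its adjusted p was 0.0618 without Mettl3-deficient liver 1, 0.0927 without wild-type liver 2 and 0.0601 without wild-type liver 3. It was 0.0843 with the Y-linked covariate and 0.0686 with no filter on low counts. Hmox1, heme oxygenase and a classical NRF2 target, had 24.7, 37.0 and 18.9 CPM in the Mettl3-deficient livers and 7.49, 23.8 and 22.9 CPM in the wild-type livers. Its groups overlapped, and it was not called (log2 fold change 0.57 ± 0.44, adjusted p = 0.368 in edgeR). Gpx4, which reduces lipid hydroperoxides, was not called either, with 362, 354 and 317 CPM in the Mettl3-deficient livers and 381, 297 and 277 CPM in the wild-type livers (log2 fold change 0.11 ± 0.21, adjusted p = 0.717 in edgeR).

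Genes of NADPH supply, which feeds both reductase systems, split 2 higher and 2 lower among 8 tested. Pgd of the pentose phosphate pathway had 235, 263 and 123 CPM in the Mettl3-deficient livers, against 46.0, 49.9 and 51.3 CPM in the wild-type livers (log2 fold change 2.08 ± 0.29, adjusted p = 0.0044 in edgeR). The mitochondrial transhydrogenase Nnt rose by 0.89 ± 0.18 (adjusted p = 0.0149 in edgeR). Cytosolic isocitrate dehydrogenase Idh1 fell by 1.07 ± 0.28 (adjusted p = 0.0314 in edgeR) and malic enzyme Me1 by 0.71 ± 0.20 (adjusted p = 0.0374 in edgeR). G6pdx, the entry enzyme of the pentose phosphate pathway, was low, at 5.76, 5.34 and 4.66 CPM in the Mettl3-deficient livers and 6.71, 4.74 and 6.28 CPM in the wild-type livers, and was not called (log2 fold change -0.17 ± 0.24, adjusted p = 0.628 in edgeR).

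Of 12 tested genes for glutathione synthesis and breakdown, 3 rose and 1 fell. Ggt6, of the family that cleaves extracellular glutathione, had 72.4, 62.4 and 74.8 CPM in the Mettl3-deficient livers, against 26.4, 29.6 and 22.8 CPM in the wild-type livers (log2 fold change 1.41 ± 0.16, adjusted p = 0.00222 in edgeR). Ggct, gamma-glutamylcyclotransferase, rose by 1.24 ± 0.21 (adjusted p = 0.00791 in edgeR) and glutathione synthetase Gss by 0.71 ± 0.17 (adjusted p = 0.0256 in edgeR). Liver glutaminase Gls2 fell by 1.02 ± 0.29 (adjusted p = 0.0373 in edgeR). Among 17 other peroxide and thiol enzymes, mitochondrial Prdx3 rose by 0.58 ± 0.17 (adjusted p = 0.0421 in edgeR) and Prdx4 of the endoplasmic reticulum fell by 0.56 ± 0.15 (adjusted p = 0.035 in edgeR). Gstcd, which carries a transferase-like domain, rose by 1.47 ± 0.33 (adjusted p = 0.0178 in edgeR), the single call among 7 other transferase-related genes.

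Of the 19 calls on these further genes, 6 held in every fit without a library, and they were Mafk, Abcc4, Ugdh, Pgd, Ggt6 and Ggct. The other 13 lost the call in at least 1 fit, with adjusted p values between 0.0512 and 0.155 where they did. Abcc3 lost it only without wild-type liver 2 and Nnt only without wild-type liver 3, whereas Me1 and Prdx3 lost it without any 1 of the 6 livers. Without Mettl3-deficient livers 1, 2 and 3 in turn, 8, 9 and 14 genes were called higher. Without wild-type livers 1, 2 and 3 in turn, 13, 7 and 7 were. The matching counts over all tested genes were not made for these fits either.

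Cell type markers moved beside these values. Summed over 8 hepatocyte markers, the level was 67411, 45175 and 76313 CPM in the Mettl3-deficient livers, against 139893, 178716 and 178830 CPM in the wild-type livers. Alb made up most of each sum, at 48739, 32061 and 53329 CPM in the Mettl3-deficient livers and 108639, 139045 and 141166 CPM in the wild-type livers. All 8 markers had negative log2 fold changes, with a median of -1.11, and Alb and Serpina1c were called lower by edgeR over all 6 livers. DESeq2 also called Ttr, Apoa1, Cyp2e1 and Ass1 lower. Mettl3-deficient liver 2, which had the lowest hepatocyte sum, was also the lowest Mettl3-deficient liver for all 6 genes called lower (Sod1, Sod2, Cat, Gsta3, Gstt1 and Gstz1). That liver was likewise the lowest of its group for 9 of the 16 genes called higher. Mettl3-deficient liver 1 was the highest of its group for 13 of the 16 genes called higher and for 4 of the 6 called lower, while Mettl3-deficient liver 3 had the highest hepatocyte sum of the group. How often each liver was the lowest or highest of its group over all tested genes was not counted, so these counts stand without a background. In bulk liver RNA, fewer cells of a type and less RNA per cell cannot be told apart.

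Summed markers of macrophages, cholangiocytes, endothelial and stellate cells overlapped between the groups, and those of lymphocytes and neutrophils did not. Summed levels of 7 Kupffer cell and macrophage markers were 264, 434 and 267 CPM in the Mettl3-deficient livers and 74.1, 251 and 297 CPM in the wild-type livers, with Cd68 called higher. Those of 7 cholangiocyte markers were 178, 91.2 and 248 CPM in the Mettl3-deficient livers and 106, 122 and 126 CPM in the wild-type livers, with Sox9 called higher. Spp1 made up most of each of these sums, at 121, 51.3 and 181 CPM in the Mettl3-deficient livers and 59.3, 88.3 and 98.2 CPM in the wild-type livers. Epcam was not called by edgeR over all 6 livers (adjusted p = 0.0586) and was called higher by DESeq2 (adjusted p = 0.0101). In edgeR its adjusted p was 0.0138 with library size alone, 0.0397 with the Y-linked covariate and 0.0189 without Mettl3-deficient liver 2. Sums of 6 endothelial markers ran from 121 to 157 CPM in the Mettl3-deficient livers and from 131 to 203 CPM in the wild-type livers, with Lyve1 called lower. Those of 6 stellate cell markers ran from 99.7 to 194 CPM in the Mettl3-deficient livers and from 102 to 141 CPM in the wild-type livers, with none called over all 6 livers by edgeR or DESeq2 and none at an unadjusted edgeR p under 0.05. Under other settings of edgeR, Col1a1 was called higher with library size alone (adjusted p = 0.0197) and with the Y-linked covariate (adjusted p = 0.019), and Acta2 without wild-type liver 1 (adjusted p = 0.0117). Sums of 7 lymphocyte and neutrophil markers were low, at 7.35, 6.84 and 4.76 CPM in the Mettl3-deficient livers, against 3.76, 2.44 and 3.66 CPM in the wild-type livers. Every Mettl3-deficient sum lay above every wild-type sum, with S100a9 called higher and Cd8a at 0 in wild-type liver 1. So did the levels of 3 of the 7 markers (Cd3e, Cd8a and S100a9, 42.9%), against 23.9% of all tested genes, and the other 4 overlapped. S100a9 was the largest of the 7 in each Mettl3-deficient liver, at 3.13, 2.79 and 1.29 CPM, against 0.426, 0.495 and 0.739 CPM in the wild-type livers. Of the 6 fits without a library, Serpina1c was called in 6, Lyve1 in 4, Alb and S100a9 in 3 each, Cd68 in 2 and Sox9 in 1. The part of the cell type markers in the values of the 42 genes was not tested.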

How the data were processed

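RNA of 6 frozen livers was depleted of ribosomal RNA with Ribo-Zero Gold and made into directional NEBNext Ultra II libraries, per the labels' protocols. The authors deposited raw, unscaled counts for 27179 Entrez genes, and the submitters' processing notes name HISAT2, featureCounts and mm10. The sources used here give no versions, settings, annotation or strand option of the counting, so reads of overlapping antisense genes may be included. Symbols, coordinates and start regions came from RefSeq on GRCm38.p6, the build of mm10, and 25275 identifiers matched a symbol. Gsta5 and Gsta13 were not matched.

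The count table was fitted in edgeR 4.0.16 under R 4.3.3, with TMM factors, group as the only term and the robust two-sided quasi-likelihood F test. Genes entered through filterByExpr (min.count of 10, min.total.count of 15). Calls used a Benjamini-Hochberg adjusted p under 0.05 over 14380 genes, and the SE is the fold change divided by the root of F. The fit was tested on simulated counts with known changes. Other settings tried were RLE and upper-quartile factors, library size alone, DESeq2 1.42.0, limma-voom 3.58.1, no filter or a CPM of 1 in 3 libraries, the replicate number as a block, a covariate for over 100 Y-linked counts, summed near-identical copies and each library left out.

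Genotype labels gave the groups. The genes and lists were chosen with earlier results of these data known. Every one of the 42 genes is named, and of the further pathway genes up to 4 called per role and direction by smallest p, plus Hmox1, G6pdx and Gpx4. The depth of 31960205 to 36025772 counts per library limits genes with few counts, such as Slc7a11, Gpx2 and Mgst2. Levels per kb use the exon length. Protein identity between copies was not used here, and the identity of the longest protein-coding GENCODE transcripts took its place.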

Additional observations from a re-analysis of the deposited data

How the results depend on the processing

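The called genes kept their direction under each alternative that gave them a value: 22 of 22, except 21 of 21 with a CPM of 1 in 3 libraries, which left Slc7a11 out, and with near-identical copies summed, where Gsta1 and Gsta2 were replaced by their sum. The count of 16 genes called higher stayed within 1.5 times under all of them, between 11 and 17 when each library was left out and 20 with library size alone. The 6 called lower ranged from 1 to 6 without a library each (2 without Mettl3-deficient liver 1, and 1 without wild-type liver 2 or wild-type liver 3) and came to 2 with library size alone and 9 with DESeq2. For the further pathway genes, the 13 called higher ranged from 7 to 14 without a library each and came to 25 with library size alone. Their 6 called lower ranged from 0 to 8 without a library each and came to 10 with DESeq2 and 0 with library size alone. At an unadjusted edgeR p under 0.05, 10 further genes were lower without Mettl3-deficient liver 1, 13 without wild-type liver 3 and 1 with library size alone. The log2 fold change of Gstp1 ranged from -0.70 to 0.84 without a library each, and was reversed and called without wild-type liver 1 (adjusted p = 0.0333 in edgeR). With the replicate block the calls were 15 higher and 5 lower among the 41 genes, and 9 higher and 3 lower among the further genes. How many of all tested genes were called under each alternative was not counted, so the counts given here stand without a background. Same-numbered livers did not deviate together (correlations of 0.08, -0.02 and 0.03), so the numbers were not taken as pairs. The cause of these changes was not tested beyond what each alternative removes: 1 library fewer leaves 2 livers in a group, and library size alone drops the composition factors. With 3 livers in a group, both small and larger log2 fold changes sat near the threshold. In edgeR over all 6 livers they included -0.66 for Sod2 (adjusted p = 0.0402) and 1.16 for Nqo1 (adjusted p = 0.0385).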
